A study of Mus musculus with 8 samples.

Results

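The genes described here are 10 mouse genes that act in growth arrest or mark a stressed cell: Cdkn1a, Mdm2, Btg2, Gdf15, Gadd45a, Gadd45b, Gadd45g, Plk3, Ccng1 and Phlda3. They were chosen by name, as classical targets of the tumour suppressor p53 and as the family of growth arrest and DNA damage genes (Gadd45). They were found through their Ensembl identifiers among the 23006 identifiers of a count table of mouse liver. Earlier results of that table were known at the choice, so counts set beside the share of all genes are a description. All 10 were in the table and all 10 passed the filter on low counts, which kept 16876 genes. The table holds 8 RNA-seq libraries of wild-type mouse liver, 2 for each of 4 treatments. The control group was given saline (PBS) only. SLIT2 mice were injected with SLIT2, a secreted protein that binds ROBO receptors, at 2 µg per mouse in the peritoneum for 3 days. APAP mice were given saline and acetaminophen (APAP), which is toxic to the liver in overdose, 400 mg/kg, and SLIT2+APAP mice were treated with both agents. Livers were collected 24 h after APAP. The labels used here name no strain, sex or age. Nothing in them ties the libraries of a group to separate animals. The p-values weigh a difference between groups against the spread of these libraries, which may be technical and may leave out differences between animals.

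The p53 protein is a transcription factor that is held low by Mdm2, the ubiquitin ligase that it induces itself, and that accumulates when DNA is damaged. Several of its targets are also driven without p53, by stress-activated kinases, by the integrated stress response through Atf4 and Ddit3, or by growth factor signals that act within minutes. In the liver Cdkn1a holds hepatocytes out of the cell cycle, Gadd45 proteins feed into p38 and JNK signalling, and Gdf15 is a hormone that the stressed liver releases into the blood. APAP is turned by hepatocytes into a reactive metabolite that injures them.

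Levels are counts per 1000000 counts (CPM) on TMM-scaled library sizes. A value with ± is a group mean with its SD (n = 2), and a difference is a log2 fold change ± its standard error (SE). Differences were tested with the quasi-likelihood test of edgeR on all 8 libraries, and a gene is said to rise or fall only where its Benjamini-Hochberg adjusted p over all 16876 genes was under 0.05. The smallest two-sided p that an exact permutation test of 1 gene can reach with 2 libraries a side is 0.333, so no such test is given. Library totals lay between 60.8 and 100.5 M counts, where M stands for 1000000. Mitochondrially encoded genes took 60.2% and 69% of the counts in the SLIT2 libraries and 13.4% to 30.3% in the others. The summed level of 8 hepatocyte markers was 14110 and 8057 CPM in SLIT2 against 53520 to 109600 CPM elsewhere, so liver identity was present in all libraries and lowest in SLIT2. The summed level of 9 skeletal muscle markers was 939.8 CPM in control 1 and 103.7 CPM in control 2, and between 0.729 and 2.29 CPM in the other 6 libraries. In bulk tissue, fewer cells that express a gene and less RNA per cell cannot be told apart.

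The promoters of the 10 genes were read from RefSeq on GRCm38.p6, which listed 12 starts for them, and the 250 bases before each start were searched on both strands. The p53 half-site, of which a full p53 element holds a pair, was found before 4 of the 10 genes (Cdkn1a, Mdm2, Ccng1 and Gadd45a), and 7.1% of 32851 mouse promoters hold it. The stretches before Cdkn1a, Mdm2 and Ccng1 are shown as examples of it. That of Gadd45a lies inside an exon of the GENCODE annotation and is not shown. The stretches have the half-site in capitals, 5′ to 3′ along the gene's strand.
Cdkn1a (chr17:29090898-29090967, plus strand): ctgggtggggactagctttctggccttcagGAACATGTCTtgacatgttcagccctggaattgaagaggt
Mdm2 (chr10:117710905-117710974, minus strand): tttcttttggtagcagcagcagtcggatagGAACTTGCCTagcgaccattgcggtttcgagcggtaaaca
Ccng1 (chr11:40755432-40755501, minus strand): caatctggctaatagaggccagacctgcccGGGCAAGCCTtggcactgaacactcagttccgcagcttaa
In the Cdkn1a stretch the half-site spans bases -51 to -42 from the start, and 9 of the next 10 bases match a second half-site, so the run is a full element but for 1 base. Another half-site lies at -73 to -64, within the stretch shown, where it is left in lower case. After the half-sites of Mdm2 (-186 to -177) and Ccng1 (-185 to -176) only 5 and 4 of the next 10 bases match.

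Other letters were searched for stress and growth factor signals. The cyclic AMP response element TGACGTCA, held by 1.5% of all promoters, was found before Btg2, and its half-site TGACG, which is contained in it and is held by 17.8%, was found before Btg2 and Plk3. The C/EBP-ATF response element TGATGNAA, through which Atf4 acts and which 3.5% hold, was found before Gadd45g, on the opposite strand. No member held the AP-1 site TGANTCA (6.7% of all promoters) or the CArG box of serum response factor (1.5%) in this window, and Gdf15, Gadd45b and Phlda3 held none of the letters searched. The stretches with a match, before Btg2, Plk3 and Gadd45g, are shown with the match in capitals. A link between these letters and the levels was not tested.
Btg2 (chr1:134079284-134079351, minus strand): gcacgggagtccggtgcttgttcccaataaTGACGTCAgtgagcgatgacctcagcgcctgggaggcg
Plk3 (chr4:117133992-117134125, minus strand): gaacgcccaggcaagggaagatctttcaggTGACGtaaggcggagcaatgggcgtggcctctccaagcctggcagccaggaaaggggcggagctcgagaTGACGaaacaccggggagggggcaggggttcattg
Gadd45g (chr13:51846544-51846611, plus strand): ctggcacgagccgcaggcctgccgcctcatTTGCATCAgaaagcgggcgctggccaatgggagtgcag
A match describes the letters and says nothing on whether a factor was bound.

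With APAP, Btg2 and Gdf15 rose over control, and 6 further members (Cdkn1a, Mdm2, Gadd45a, Gadd45b, Gadd45g and Plk3) had positive differences that did not pass. In both APAP libraries, 7 of the 10 genes stood above both control libraries, a pattern that 26.9% of all genes tested showed. By the test, 2 of 10 rose and 0 fell, where 0.332% of all genes rose and 0.788% were called in either direction. The median difference of the 10 was 3.02 on the log2 scale, and that of all genes was 0.05. By DESeq2, 7 of the 10 rose and Ccng1 fell, against 6.03% of all genes that rose with that tool. With SLIT2 in addition to APAP, Btg2, Gdf15, Gadd45a, Gadd45b, Gadd45g and Plk3 fell against APAP, and 9 of 10 lay below both APAP libraries. Of all genes, 7.64% fell in that comparison, 13.9% were called in either direction and 29.4% lay below both APAP libraries. The median difference was -3.75 for the 10 genes and -0.06 for all genes. By DESeq2, 8 of the 10 fell, Cdkn1a and Mdm2 among them, where that tool called 3490 genes (44.3% of them up). The 2 comparisons share the APAP libraries.

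**Figure D1:**
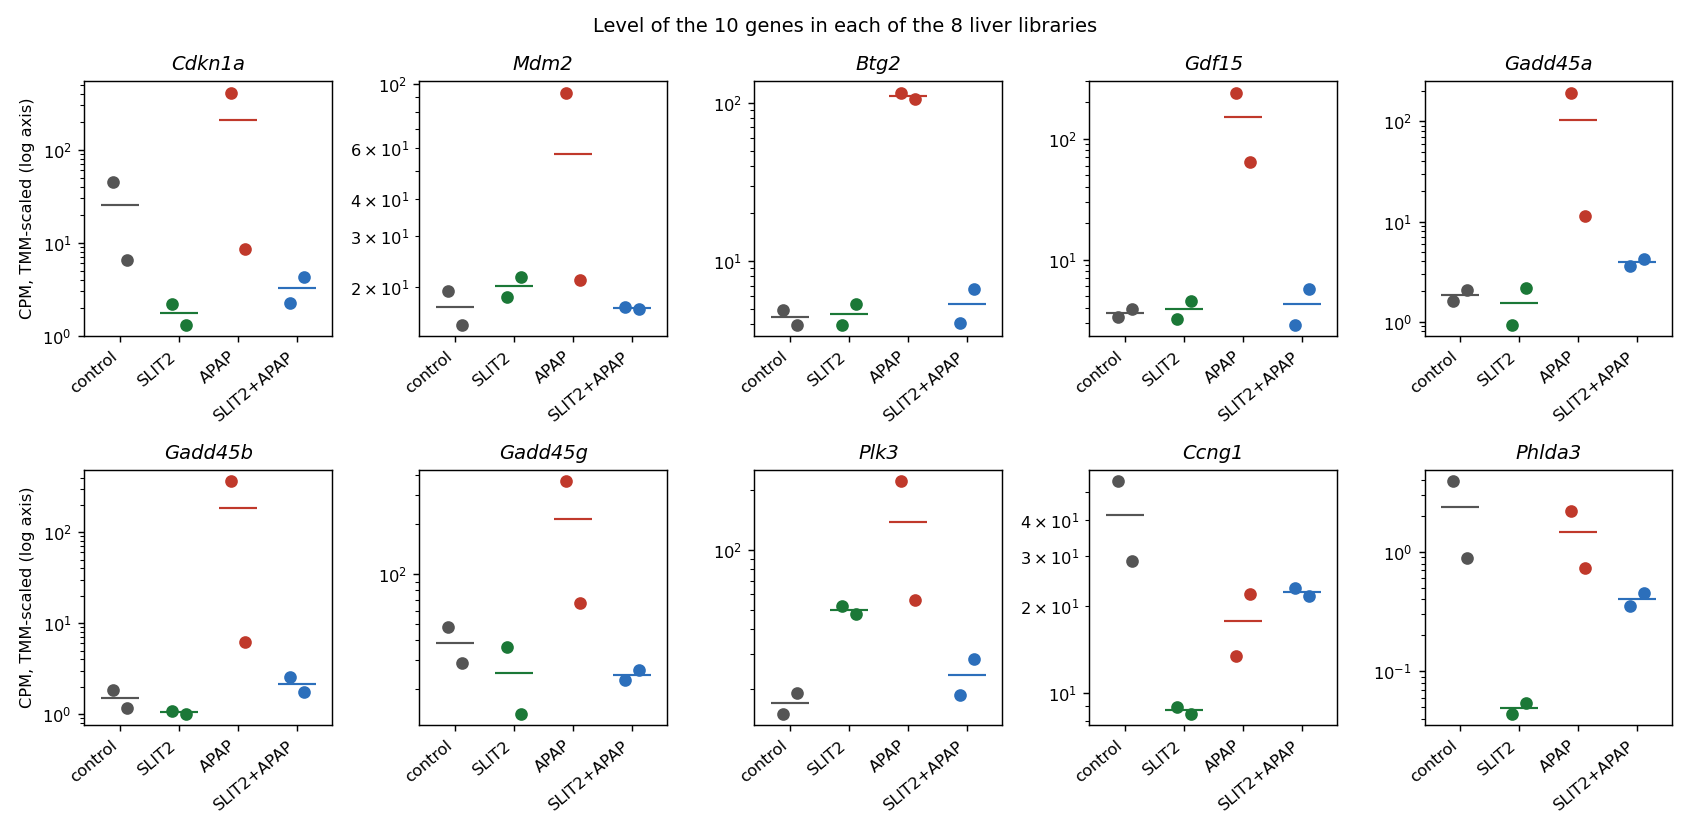
Level of each gene in each library, in TMM-scaled CPM on a log axis, with 1 panel per gene; points are the 2 libraries of a group and lines their arithmetic mean. Btg2 stood at 116 and 105 CPM in the APAP libraries, while Cdkn1a, Gadd45a and Gadd45b were high in 1 of them.

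No member was called in SLIT2+APAP against control, and Mdm2, Btg2, Gdf15, Gadd45b and Plk3 overlapped the control libraries there. The count was 0 of 10 by edgeR (2 at an unadjusted p under 0.05) and 1 of 10 by DESeq2, where 2.16% and 9.03% of all genes were called. Gadd45a lay above both control libraries in both SLIT2+APAP libraries, as 35.2% of all genes did. Cdkn1a, Gadd45g, Ccng1 and Phlda3 lay below them, as 32.3% of all genes did. With SLIT2 alone, Plk3 rose and Ccng1 and Phlda3 fell, a count of 3 of 10 in a comparison where 54.9% of all genes were called. The difference between the effect of SLIT2 with APAP and its effect without APAP (the interaction) was called for 4 of 10 genes, Btg2, Gdf15, Plk3 and Ccng1, where 28.8% of all genes were called. Among all genes called, 42.1% were up in APAP against control (61.4% with scaling by library totals only), 45.1% in SLIT2+APAP against APAP (61%) and 33.2% in SLIT2+APAP against control (68.5%).

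**Figure D2:**
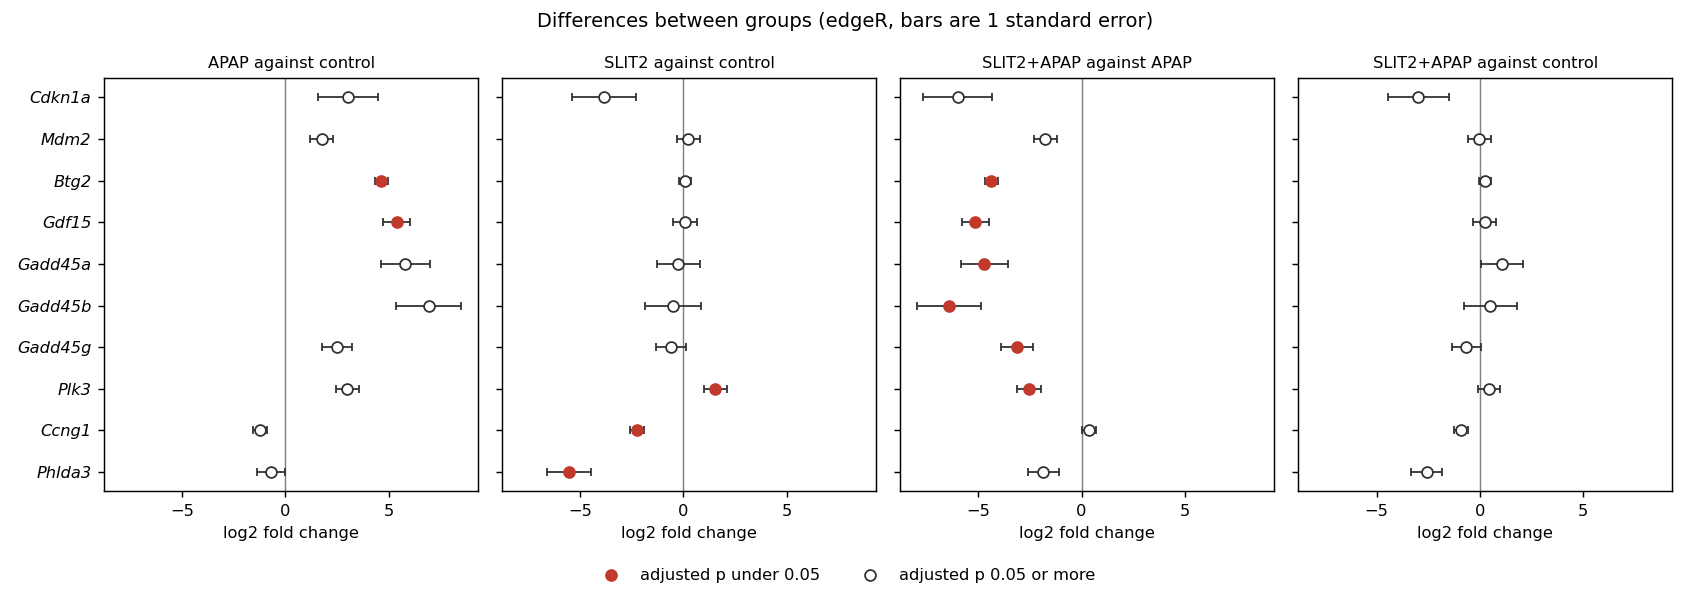
Log2 fold change of each gene in 4 comparisons, with bars of 1 SE from edgeR; filled points have an adjusted p under 0.05. Btg2 (4.65) and Gdf15 (5.39) are the filled points of APAP against control, and 6 genes are filled below 0 in SLIT2+APAP against APAP.

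Btg2, an antiproliferative gene that p53 induces and that also answers growth factors as an immediate early gene, differed least between the APAP libraries. It was at 4.88 and 3.95 CPM in the control libraries, at 116 and 105 CPM with APAP, and at 4.07 and 6.66 CPM with SLIT2+APAP. Both APAP libraries were far above all others, and the control, SLIT2 and SLIT2+APAP libraries overlapped. The rise with APAP was 4.65 ± 0.33 (edgeR adjusted p = 0.006499), the smallest p of all 16876 genes in that comparison. The fall with SLIT2+APAP against APAP was -4.37 ± 0.32 (edgeR adjusted p = 0.004034), and the interaction was -4.44 ± 0.42 (edgeR adjusted p = 0.003125). With SLIT2 alone Btg2 stood at 3.95 and 5.36 CPM, within 0.08 ± 0.29 of control on the log2 scale. The call against control was lost without either SLIT2 library: the edgeR adjusted p was 0.0527 without SLIT2 1, 0.06022 without SLIT2 2 and 0.1516 with only the 4 libraries compared, while the difference stayed between 4.51 and 4.8 in all 18 alternatives. Against APAP, Btg2 was called in each of the 8 fits that left out 1 library, but not with only the libraries compared (0.08447).

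Gdf15, the stress hormone of the TGF-beta superfamily, which p53 and the integrated stress response both induce, followed the same order. The libraries held 3.37 and 3.92 CPM of it in control, 240.6 and 64.8 CPM with APAP, and 2.89 and 5.71 CPM in SLIT2+APAP. Both APAP libraries again exceeded every other library, and they differed from each other 3.71-fold. Gdf15 rose by 5.39 ± 0.67 with APAP (edgeR adjusted p = 0.03274) and fell by 5.15 ± 0.67 against APAP when SLIT2 was given too (edgeR adjusted p = 0.006569). The rise kept its call in 2 of the 8 fits that left out 1 library, those without APAP 3, where it was 4.15, or without APAP 4. The edgeR adjusted p in the other 6 was 0.199 without control 1, 0.071 without control 2, 0.0828 without SLIT2 1, 0.0815 without SLIT2 2, 0.0572 without SLIT2+APAP 1 and 0.0569 without SLIT2+APAP 2. The fall was no longer called without SLIT2+APAP 1 (0.06118) and without SLIT2+APAP 2 (0.0747), nor with only the libraries compared (0.08658), and without APAP 3 it was -3.92. SLIT2 alone left Gdf15 at 3.24 and 4.53 CPM, which overlap the control libraries.

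Cdkn1a encodes the CDK inhibitor p21 and is the best known arrest target of p53. By the edgeR test over all 16876 genes it did not pass in any of the 5 comparisons. DESeq2 called it lower in SLIT2 against control and in SLIT2+APAP against APAP (DESeq2 adjusted p = 0.002612 in the second). That tool called 9187 and 3490 genes in these comparisons. With at least 10 CPM in 2 libraries, edgeR called the second as well (edgeR adjusted p = 0.04869). Its level was 45.0 and 6.45 CPM in control, 412 and 8.53 CPM with APAP, 2.21 and 1.30 CPM in SLIT2, and 2.25 and 4.25 CPM in SLIT2+APAP. A single library, APAP 3, was far above the rest, APAP 4 lay between the control libraries, and all SLIT2 and SLIT2+APAP libraries lay below both controls. The difference with APAP was 3.03 ± 1.46 (edgeR adjusted p = 0.2476) with both APAP libraries and -1.59 without APAP 3. The difference of SLIT2+APAP from APAP was -6.01 ± 1.69 (edgeR adjusted p = 0.05214) and -1.39 without APAP 3. Control 1, the higher control library for Cdkn1a, is also the one with 939.8 CPM of muscle markers, and the part of those cells in its level was not tested. The difference of SLIT2 from control was -3.86 ± 1.56 (edgeR adjusted p = 0.06575) and -1.91 without control 1. Cdkn1a shares 273 exonic bases with AC167363.2 on the opposite strand, which has no values of its own here.

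Mdm2, the ligase that closes the p53 feedback loop, was high in 1 library. Its level was 19.3 and 14.8 CPM in control, 18.4 and 21.6 CPM in SLIT2, 93.2 and 21.01 CPM in APAP, and 17.0 and 16.7 CPM in SLIT2+APAP. APAP 3 stood 4.44-fold above APAP 4, which was within the range of the SLIT2 libraries. The difference with APAP was 1.75 ± 0.57 (edgeR adjusted p = 0.1231), and it was 0.31 without APAP 3 and 2.44 without APAP 4, where it was called (0.0002301), as it was by DESeq2. SLIT2+APAP differed from APAP by -1.76 ± 0.57, which did not pass (edgeR adjusted p = 0.07639) but was called by DESeq2 (DESeq2 adjusted p = 0.01044). That difference ran from -2.45 to -0.32 over 18 alternatives. SLIT2+APAP differed from control by -0.01 ± 0.56, with overlapping libraries.

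The Gadd45 genes encode 3 small acidic proteins that bind Map3k4, the kinase at the head of p38 and JNK signalling, and that also bind PCNA and p21. Gadd45b, which NF-kappaB and TGF-beta induce as well, was at 1.84 and 1.18 CPM with saline, 364 and 6.17 CPM with APAP, and 2.57 and 1.76 CPM with SLIT2+APAP. Gadd45a, the p53 target of the family, was at 1.61 and 2.05 CPM with saline, 194 and 11.3 CPM with APAP, and 3.62 and 4.19 CPM with SLIT2+APAP. Gadd45g, which cytokines induce, had the highest base level, with 47.5 and 28.8 CPM with saline, 364 and 66.7 CPM with APAP, and 22.7 and 26.3 CPM with SLIT2+APAP. For all 3 genes both APAP libraries lay above all the other libraries, but APAP 3 exceeded APAP 4 by 59-fold for Gadd45b, 17.2-fold for Gadd45a and 5.45-fold for Gadd45g. None of the 3 passed against control, with differences of 6.94 ± 1.59 for Gadd45b (edgeR adjusted p = 0.0708), 5.81 ± 1.19 for Gadd45a (0.06474) and 2.5 ± 0.75 for Gadd45g (0.1075). Without APAP 3 these were 2.04, 2.63 and 0.81, and Gadd45b (0.02747) and Gadd45a (0.02335) were called. Without APAP 4 they were 7.9, 6.71 and 3.24, and all 3 were called. DESeq2 called all 3 as well, and library totals only called Gadd45a (0.04901).

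All 3 Gadd45 genes fell in SLIT2+APAP against APAP, with differences of -6.42 ± 1.55 for Gadd45b (edgeR adjusted p = 0.03348), -4.71 ± 1.13 for Gadd45a (0.03287) and -3.13 ± 0.77 for Gadd45g (0.03577). The falls were smaller without APAP 3, where the differences were -1.52 for Gadd45b, -1.54 for Gadd45a and -1.45 for Gadd45g, and the first and second were called (edgeR adjusted p = 0.0192 and 0.0309) while Gadd45g was not (0.136). Without any 1 of the other libraries except APAP 4, none of the 3 was called, with adjusted p from 0.0552 to 0.239, as was also so without both SLIT2 libraries (0.05615 to 0.06833), with no count filter (0.05789 to 0.05986) and with only the libraries compared (0.122 to 0.1405). Gadd45g was not called with GC offsets either (0.05542). SLIT2 alone left Gadd45a at 0.929 and 2.16 CPM, Gadd45b at 1.08 and 1.01 CPM and Gadd45g at 36.2 and 14.3 CPM, and none of these differences passed. Gadd45a shares 337 exonic bases with E230016M11Rik on the opposite strand. That gene was at 0.622 to 4.78 CPM over the 8 libraries, and the sources used here do not say whether strand was used in counting, so the genes cannot be fully told apart.

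Plk3, a stress-activated kinase that phosphorylates p53, was the member that SLIT2 alone raised. Its level was 15.2 and 19.1 CPM in control, 52.2 and 47.6 CPM in SLIT2, 220.5 and 56.0 CPM in APAP, and 18.7 and 28.3 CPM in SLIT2+APAP. The SLIT2 libraries agreed within 1.1-fold and lay above both controls, close to APAP 4, and the SLIT2+APAP libraries overlapped control. Plk3 rose by 1.54 ± 0.55 with SLIT2 (edgeR adjusted p = 0.04353) and fell by 2.56 ± 0.57 in SLIT2+APAP against APAP (0.02685), and the interaction was -4.1 ± 0.79 (0.0104). The difference with APAP was 3.01 ± 0.58 and did not pass (0.05796). It was called without APAP 3 (1.71, edgeR adjusted p = 0.0233), without APAP 4 (3.67, 0.000137), with library totals only (3.08, 0.04656) and by DESeq2. The rise with SLIT2 lost its call without control 1 (0.19), control 2 (0.0986), SLIT2 1 (0.14), SLIT2 2 (0.102), SLIT2+APAP 1 (0.0658) or SLIT2+APAP 2 (0.0657). The fall in SLIT2+APAP against APAP kept its call without APAP 3 (-1.26, edgeR adjusted p = 0.0146) or APAP 4 and lost it in the other 6 such fits (0.0537 to 0.179), without both SLIT2 libraries (0.05678) and with only the libraries compared (0.128). The interaction was -2.76 without APAP 3 and lost its call without control 1 (0.0537) or SLIT2+APAP 1 (0.065). Plk3 shares 84 exonic bases with Tctex1d4 on the opposite strand, which was at 0.873 CPM or lower in every library.

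Ccng1, cyclin G1, which p53 induces and which recruits a phosphatase to Mdm2, was lower in every treated library than in control. Its level was 54.3 and 28.8 CPM in control, 8.92 and 8.47 CPM in SLIT2, 13.5 and 22.0 CPM in APAP, and 23.2 and 21.7 CPM in SLIT2+APAP. All 6 treated libraries lay below both controls, the SLIT2 libraries lowest and within 1.05-fold of each other. Ccng1 fell by 2.26 ± 0.35 with SLIT2 (edgeR adjusted p = 0.001196), a call kept in all 19 alternatives, among them each fit that left out 1 library. The difference with APAP was -1.23 ± 0.34 (0.09474) and that of SLIT2+APAP from control -0.89 ± 0.34 (0.1946). The interaction was 2.6 ± 0.49 (edgeR adjusted p = 0.009558), the only positive one called among the 10 genes, and it was lost without SLIT2 2 (0.0509) or SLIT2+APAP 1 (0.0521). The SLIT2 libraries are those with the lowest hepatocyte marker sums and the largest mitochondrial share, and the part of these in the fall was not tested. Muscle markers summed to 939.8 CPM in control 1, the higher control for Ccng1, and to 103.7 CPM in control 2. In the treated libraries that sum was 2.29 CPM or lower. The part of muscle in the control levels of Ccng1 was not tested.

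Phlda3, a p53-induced repressor of Akt, was the least abundant member in all groups but control. Its level was 3.91 and 0.883 CPM in control, 2.21 and 0.729 CPM with APAP, 0.0442 and 0.0543 CPM in SLIT2, and 0.350 and 0.450 CPM in SLIT2+APAP. The SLIT2 libraries held 3 counts each, and the control libraries, at 328 and 84 counts, differed 4.43-fold. Over the group, 6 counts in SLIT2 against 412 in control gave a level 47.2-fold lower (exact 95% counting interval 21.5 to 129). That interval is for counting error alone and leaves out the spread between libraries, which was 4.43-fold in control. Reads lacking molecular identifiers also do not stand for single molecules. Phlda3 fell by 5.57 ± 1.07 with SLIT2 (edgeR adjusted p = 0.002658) and by 4.18 without control 1 (0.0108), and the call was kept in all 18 alternatives. Control 1, the higher library, again holds the larger sum of muscle markers. With APAP the libraries overlapped control and the difference was -0.71 ± 0.69 (0.5551), and without control 1 it was 0.71.

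The APAP libraries stood far apart for most of the 10 genes. Over all genes tested the median difference between them was 0.63 on the log2 scale, the largest of the 4 groups. Only 0.29% of all genes differed between APAP 3 and APAP 4 by as much as Gadd45b and 0.356% by as much as Cdkn1a. The share was 1.3% for Gadd45a, 6.05% for Gadd45g, 8.31% for Mdm2, 10.4% for Plk3 and 11.2% for Gdf15, and 87.1% for Btg2, whose libraries were 1.1-fold apart. Set against the mean of the controls, the median difference of the 10 genes was 4.14 in APAP 3 and 1.28 in APAP 4, and that of all genes 0.01 and 0. Above both controls were 8 of the 10 in APAP 3, where 44.9% of all genes were, and 7 in APAP 4, where 41.8% were. The median of the 10 was -0.31 and -0.14 in the SLIT2 libraries and -0.22 and 0.12 in the SLIT2+APAP libraries. APAP 3 was above APAP 4 in the summed level of all 9 marker lists, but not in most markers of every list. The sums were 109600 against 85790 CPM for 8 hepatocyte markers (6 higher in APAP 3, 2 lower), 617 against 192 CPM for 7 erythroid markers (5 higher, 2 lower) and 108.4 against 40.7 CPM for 8 endothelial markers (8 higher). They were 98.7 against 62.9 CPM for 10 macrophage markers (6 higher, 4 lower), 19.6 against 7.33 CPM for 10 neutrophil markers (7 higher, 3 lower) and 1.45 against 0.729 CPM for 9 muscle markers (8 higher, 0 lower). In 3 lists most markers were lower in APAP 3: stellate (193 against 124 CPM, with 6 of 8 lower and Dcn at 153 against 76.8 CPM), cholangiocyte (66.4 against 57.0 CPM, with 5 of 6 lower and Sox9 at 44.15 against 9.18 CPM) and lymphocyte (3.75 against 3.33 CPM, with 5 of 9 lower). Of the 10 neutrophil markers, Ly6g, Elane, Camp, Ngp, Ltf and Mmp8 had no count in at least 1 of the 8 libraries. Their part in the levels of the 10 genes was not tested.

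**Figure D3:**
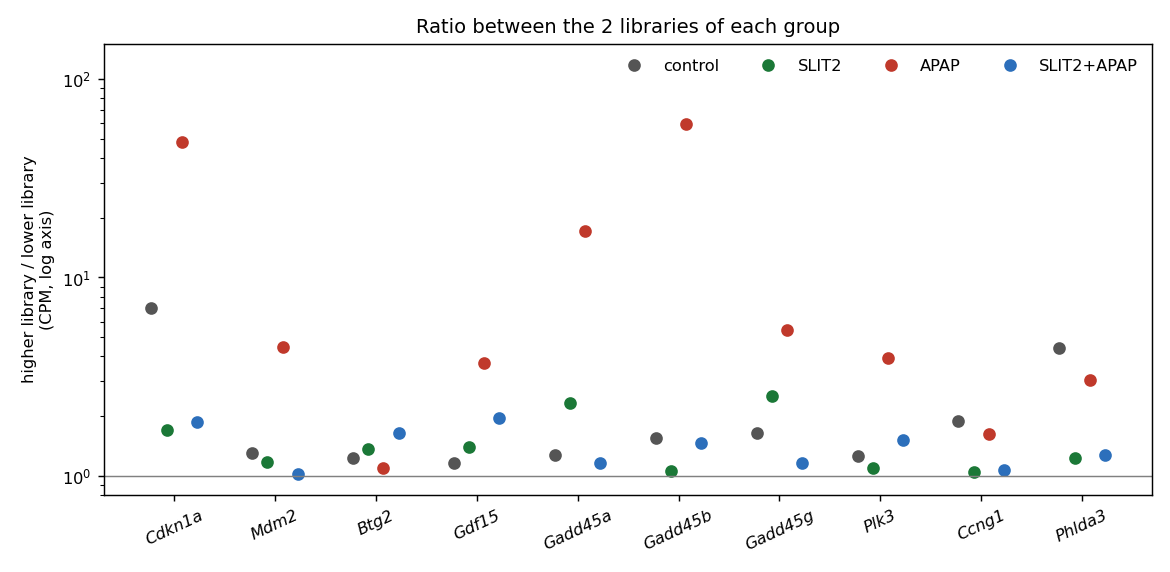
Ratio of the higher to the lower library (CPM, log axis) for each gene in each group of 2. In APAP the ratio was 59 for Gadd45b and 48.3 for Cdkn1a but 1.1 for Btg2, and in control it was 6.98 for Cdkn1a and 4.43 for Phlda3.

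Compared per kilobase of exon, which allows levels of different genes to be set side by side, Gadd45g had the highest mean of the 10 in every group, although Plk3 exceeded it in SLIT2 2 (18.8 against 12.2 CPM per kilobase). In control it was at 32.5 ± 11.3 CPM per kilobase, above Ccng1 at 11.8 ± 5.14, with no overlap of their libraries. Cdkn1a (7.24 ± 7.67) overlapped both Ccng1 and the next in order, Plk3 (6.77 ± 1.11), and Mdm2 followed at 3.35 ± 0.628, below both Plk3 libraries. Gdf15 (1.97 ± 0.21), Btg2 (1.61 ± 0.238) and Phlda3 (1.54 ± 1.37) came next, with Phlda3 overlapping both others. The lowest in control were Gadd45a (1.04 ± 0.177) and Gadd45b (0.948 ± 0.293), which overlapped. In APAP, Gadd45g (183.5 ± 179), Gadd45b (116 ± 159), Gdf15 (82.4 ± 67.1), Cdkn1a (59.1 ± 80.2) and Gadd45a (58.1 ± 73.2 CPM per kilobase) did not differ from their neighbours in order beyond the spread of the libraries. Btg2 was at 40.4 ± 2.76 CPM per kilobase there, above Mdm2 (11.2 ± 10.1) in both libraries. In SLIT2, Cdkn1a (0.495 ± 0.181) had moved to the ninth place of the 10, above Phlda3 alone (0.0316 ± 0.00457).

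A list of 23 further p53 targets that act in apoptosis, metabolism and DNA repair was compared with the members. With APAP, 0 of the 23 were called by edgeR (5 at an unadjusted p under 0.05), and their median difference was 0.12. DESeq2 called 3 of them up (Sesn2, Trp53inp1 and Gtse1) and 1 down (Ak1), where it called 10.7% of all genes in either direction. In both APAP libraries 8 of the 23 lay above both controls, a share to be read beside the 26.9% of all genes. Among the 8, Sesn2, a stress-induced inhibitor of mTORC1, stood at 3.37 and 3.76 CPM in control and 33.7 and 6.38 CPM with APAP (2.49 ± 0.65, edgeR adjusted p = 0.08761). Trp53inp1, which promotes p53-dependent death, stood at 64.0 and 38.3 CPM and at 226.6 and 72.4 CPM (1.55 ± 0.49, 0.1157), and Ddit4, another mTORC1 inhibitor, at 6.78 and 6.27 CPM and at 43.1 and 7.77 CPM (1.96 ± 0.8, 0.1803). These 3 were, like most of the members, highest in APAP 3. Bax, the pore-forming death effector, stood at 20.7 and 20.4 CPM in control and 21.2 and 22.0 CPM in APAP. When SLIT2 was added to APAP 0 of the 23 were called by edgeR as well (7 at an unadjusted p under 0.05), with a median of -0.15. DESeq2 called 1 up (Tnfrsf10b) and 4 down (Sesn2, Trp53inp1, Ddit4 and Gtse1). Over all genes DESeq2 called 3490 in that comparison, where edgeR called 2351 (13.9%). With SLIT2 alone 6 rose and 8 fell, a count of 14 of 23 where 54.9% of all genes were called. The counts of the other lists with SLIT2 stand beside the same share, and those of the interaction beside 28.8%. Tnfrsf10b, a death receptor, rose from 1.38 and 1.18 CPM to 12.2 and 13.3 CPM, and Zmat3, an RNA-binding target, from 4.02 and 4.05 CPM to 14.3 and 14.2 CPM. Psrc1, a spindle protein, rose by 5.02 ± 0.61, from a very low 0.036 and 0.063 CPM to 1.81 and 1.54 CPM. Perp, a membrane protein of p53-dependent death, fell from 133.5 and 118 CPM to 15.8 and 5.27 CPM. Between SLIT2+APAP and control only Ak1, an adenylate kinase abundant in muscle, was called (-5.14 ± 1, edgeR adjusted p = 0.04614), with 10.8 CPM in control 1 and 1.62 CPM in control 2. The interaction was called up for 3 and down for 5 of the 23, with Perp (3.43 ± 0.62) and Ei24 (1.75 ± 0.35) up and Tnfrsf10b (-2.42 ± 0.37) and Zmat3 (-1.98 ± 0.34) down at the smallest p.

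Trp53 itself, the mouse p53 gene, was not called in any comparison. It was at 10.5 and 11.2 CPM in control, 18.2 and 19.9 CPM in SLIT2, 3.44 and 12.2 CPM in APAP, and 8.10 and 7.65 CPM in SLIT2+APAP. The transcript was lowest in APAP 3 and lay above both controls in APAP 4. The p53 protein was not measured in these libraries. The differences of Trp53 were -0.47 ± 0.48 with APAP and 0.81 ± 0.48 with SLIT2. Mdm4, the second p53 inhibitor, was at 1.93 and 2.66 CPM in control and 2.62 and 5.11 CPM with APAP and did not pass either. Of 11 tested genes among 12 for p53 and its regulators, 0 were called with APAP by edgeR (1 at an unadjusted p under 0.05, and 1, Chek1, by DESeq2) and 5 rose with SLIT2. Among these 5, Hipk2, a kinase that activates p53, rose from 8.54 and 9.41 CPM to 41.3 and 28.8 CPM. Chek2, Trp63 and Atm rose by 1.95 ± 0.4, 3.26 ± 0.74 and 1.35 ± 0.33. Trp63 was very low throughout, at 0.036 and 0.042 CPM in control and 0.428 and 0.344 CPM in SLIT2. It stood at 0.0624 and 0.0097 CPM in APAP and 0 and 0.0102 CPM in SLIT2+APAP. Hipk2 was also the 1 gene of this list that rose in SLIT2+APAP against APAP (1.42 ± 0.33, edgeR adjusted p = 0.02928). The interaction was down for Chek1 (-2.8 ± 0.78) and Trp63 (-5.55 ± 1.72), and 0 genes of the list were called in SLIT2+APAP against control by edgeR (1 at an unadjusted p under 0.05, and 1, Hipk2, by DESeq2).

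The counts of partners and paralogs of the members, and of the lists after them, stand beside the shares of all genes. Called in either direction by edgeR were 0.788% in APAP against control, 13.9% in SLIT2+APAP against APAP and 2.16% in SLIT2+APAP against control. By DESeq2 the share was 10.7% in APAP against control and 9.03% in SLIT2+APAP against control. Of 10 genes between Gadd45 and the MAP kinases, 0 were called with APAP by edgeR (3 at an unadjusted p under 0.05) or DESeq2, and Map3k4 stood at 7.31 and 7.30 CPM in control and 5.70 and 10.8 CPM in APAP. Mapk14, the p38 alpha kinase, fell in SLIT2+APAP against APAP from 69.4 and 42.9 CPM to 22.0 and 21.3 CPM (-1.37 ± 0.25, edgeR adjusted p = 0.01569). With SLIT2 alone 3 of the 10 rose and 2 fell, led by Map2k6 (2.45 ± 0.44), Mapk11 (1.74 ± 0.39) and Map2k7 (1 ± 0.25) up and Map2k4 (-0.99 ± 0.21) down. The interaction was down for Map2k7 (-1.44 ± 0.35), Mapk11 (-1.94 ± 0.54) and Map3k5 (-1.66 ± 0.53) and up for Map2k4 (0.92 ± 0.29). Of the other CDK inhibitors, 5 of 7 were tested and 0 were called with APAP by edgeR (0 at an unadjusted p under 0.05) or DESeq2. Cdkn2c was the only one called with SLIT2 (-2.02 ± 0.46) and in the interaction (2.25 ± 0.62). Of 11 tested paralogs of the members, 0 were called with APAP by edgeR (2 at an unadjusted p under 0.05) and 2 by DESeq2 (Btg1 and Btg3), and Btg3 fell in SLIT2+APAP against APAP (-2.96 ± 0.61), from 34.5 and 7.99 CPM to 2.55 and 2.89 CPM. With SLIT2 1 paralog rose and 5 fell, among them Tob2 (-1.06 ± 0.21), Ccng2 (-1.73 ± 0.39), Tob1 (-1.2 ± 0.3) and Btg1 (-1.36 ± 0.36), and the interaction was up for Ccng2 (2.04 ± 0.54) and Tob1 (1.48 ± 0.42).

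Of 12 genes of the G1 and G2 machinery that p21 and Gadd45 hold back, 1 was called with APAP by edgeR (5 at an unadjusted p under 0.05). DESeq2 called 2 (Ccne1 and Ccnd1). Ccne1, cyclin E1, rose with APAP from 0.465 and 0.662 CPM to 4.03 and 2.75 CPM (2.58 ± 0.38, edgeR adjusted p = 0.03912). Ccnd1, cyclin D1, stood at 8.56 and 8.99 CPM in control, 10.3 CPM in APAP 3 and 75.7 CPM in APAP 4. Against APAP alone, SLIT2+APAP had lower Ccne1 (-1.62 ± 0.36) and Pcna, the polymerase clamp (-1.33 ± 0.29), and higher G1 kinases Cdk6 (1.82 ± 0.26) and Cdk4 (1.32 ± 0.29), all of which passed. Cdk4 stood at 69.4 and 84.8 CPM in APAP and 189.9 and 196 CPM in SLIT2+APAP. Cdk6 was also the 1 gene of the list called in SLIT2+APAP against control (1.46 ± 0.26). With SLIT2 alone 5 of the 12 rose and 2 fell, with Cdk6 (2.76 ± 0.27), Ccne1 (2.04 ± 0.38) and Ccnd2 (2.09 ± 0.43) up and Pcna (-2.46 ± 0.3) down at the smallest p. The interaction was called for Ccne1 (-3.67 ± 0.52) and Cdk4 (1.35 ± 0.4).

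The immediate early and integrated stress response lists share Atf3. Of 11 immediate early genes, which growth factor and stress kinases switch on within minutes, 6 rose with APAP and 0 fell, with a median of 4.15, and 9 fell in SLIT2+APAP against APAP with a median of -4.28. Ier2 rose from 23.1 and 20.2 CPM to 246 and 145 CPM, Fos from 1.10 and 1.24 CPM to 40.01 and 62.0 CPM, and Jun from 7.31 and 8.43 CPM to 524 and 172 CPM. Egr1 rose from 3.79 and 2.81 CPM to 635 and 170.1 CPM. Their interactions with SLIT2 were negative and called for 6 of the 11, among them Ier2 (-3.49 ± 0.43), Egr1 (-7.51 ± 1.02), Junb (-3.65 ± 0.64) and Jun (-4.93 ± 0.9). With SLIT2 alone and in SLIT2+APAP against control 0 of the 11 were called by edgeR (0 at an unadjusted p under 0.05 in each) or DESeq2, which called all 11 with APAP. Of 10 genes of the integrated stress response, 0 were called with APAP by edgeR (7 at an unadjusted p under 0.05) and 6 by DESeq2 (5 up, 1 down), with a median of 1.26, and 5 fell in SLIT2+APAP against APAP with a median of -1.9. Atf4, its transcription factor, stood at 86.9 and 89.4 CPM in control against 232 and 106 CPM with APAP and was not called (0.94 ± 0.34, edgeR adjusted p = 0.1479). Its target Ddit3 was at 3.00 and 3.45 CPM in control and 19.9 and 8.34 CPM with APAP (2.13 ± 0.42, 0.06052), and it fell in SLIT2+APAP against APAP (-1.91 ± 0.42, 0.02508). Asns (-2.1 ± 0.48), Atf3 (-6.34 ± 1.45) and Ppp1r15a (-2.33 ± 0.57) fell there too. Of these, Asns was lower with APAP (8.89 and 5.22 CPM) than in control (22.6 and 13.3 CPM). It was the 1 gene of the list that DESeq2 called down with APAP. Asns, asparagine synthetase, also fell with SLIT2 alone (-4.92 ± 0.55) and in SLIT2+APAP against control (-3.45 ± 0.5), and Cebpb fell with SLIT2 alone (-0.87 ± 0.29). The interaction was called for Ddit3 (-2.55 ± 0.58), Ppp1r15a (-2.83 ± 0.79) and Asns (2.82 ± 0.69). The immediate early and stress lists were known from earlier results of these data to move, so their counts are a description.

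**Figure D4:**
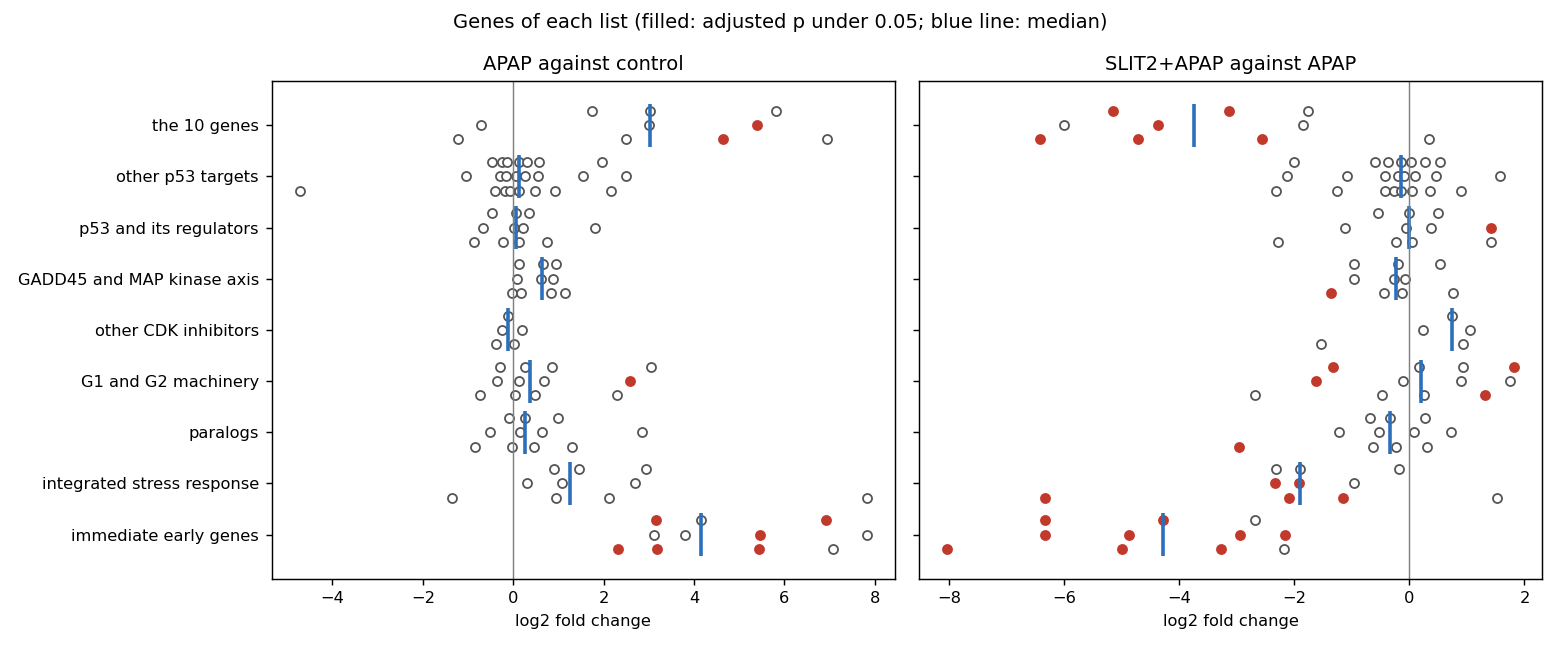
Log2 fold change of each tested gene of 9 lists in APAP against control (left) and SLIT2+APAP against APAP (right); filled points have an adjusted p under 0.05 and the blue line is the list's median. The medians at left are 3.02 for the 10 genes, 0.12 for the 23 other p53 targets and 4.15 for the 11 immediate early genes.

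Patterns over the 8 libraries were compared gene by gene as the root mean square difference of log2 CPM after each gene's own mean was removed, over 8112 genes with a mean of at least 5 CPM, including members. The genes most like Gdf15 were Jun at 0.21, Btg2 at 0.51 and Myc at 0.69, where the median of all genes was 2.21. Those most like Btg2 were Gdf15 at 0.51, Jun at 0.53 and Fos at 0.76. Gadd45b was most like Hmox1, the inducible heme oxygenase, at 0.62, Gadd45a at 0.71 and Maff at 0.76. Gadd45a was most like Cxcl10 at 0.67, Myc at 0.71 and Gadd45b at 0.71. Cdkn1a had no close match. Its nearest were Rab30 at 0.98, Hilpda, a lipid droplet protein, at 1.03 and Cidec at 1.03, which were high in APAP 3 and not in APAP 4. Of the 45 pairs among the 10 genes, the closest were Btg2 with Gdf15 (0.51), Mdm2 with Plk3 (0.63) and Gadd45a with Gadd45b (0.71), and the farthest was Gadd45b with Ccng1 (2.86). All 8 points of a pattern come from the same libraries, so these distances are a description.

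**Figure D5:**
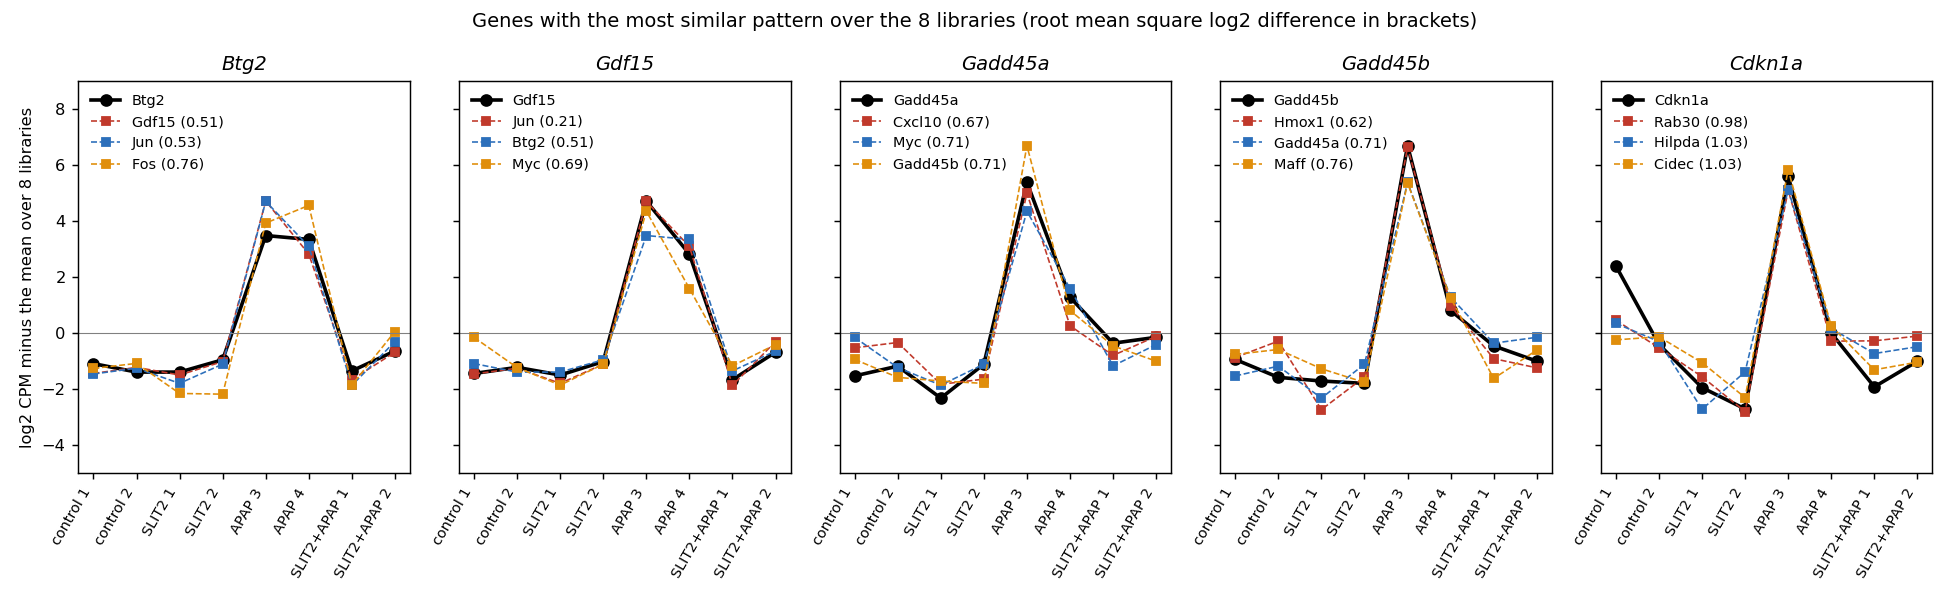
Log2 CPM minus the gene's mean over the 8 libraries, for 5 members (black) and the 3 genes most like each, with the root mean square difference in brackets. Gdf15 and Jun (0.21) lie almost on one line, and the Cdkn1a, Gadd45a and Gadd45b panels peak in APAP 3.

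On GRCm38 with the GENCODE M21 annotation, all 10 are protein-coding genes. Cdkn1a (ENSMUSG00000023067) lies on chromosome 17 from 29090976 to 29100727, Mdm2 (ENSMUSG00000020184) on chromosome 10 from 117688875 to 117710758 and Btg2 (ENSMUSG00000020423) on chromosome 1 from 134075170 to 134079120. Gdf15 (ENSMUSG00000038508) lies on chromosome 8 from 70629393 to 70632456, Gadd45a (ENSMUSG00000036390) on chromosome 6 from 67035096 to 67037457 and Gadd45b (ENSMUSG00000015312) on chromosome 10 from 80930073 to 80932204. Gadd45g (ENSMUSG00000021453) lies on chromosome 13 from 51846678 to 51848468 and Plk3 (ENSMUSG00000028680) on chromosome 4 from 117128655 to 117133963. Ccng1 (ENSMUSG00000020326) lies on chromosome 11 from 40748552 to 40755311 and Phlda3 (ENSMUSG00000041801) on chromosome 1 from 135766119 to 135769136, so Btg2 and Phlda3 share a chromosome and the 3 Gadd45 genes do not.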

How the data were processed

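RNA of 8 mouse liver libraries was sequenced with a directional kit, per the labels' protocols. The authors deposited whole-number counts per Ensembl gene, and all 8 columns were used. Per the submitters' processing notes STAR 2.5.4, Cufflinks, Cuffdiff 2.2.1 and build mm10 were used, with no role given. How reads were counted, and whether by strand, is not given in the sources used here. The largest counts look rounded, since 72 of the 93 that reach 1000000 have 0 as last digit. Symbols and positions came from GENCODE M21 on GRCm38, which matched 97.1% of identifiers.

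Genes were kept by filterByExpr, scaled by TMM and tested in R 4.3.3 with edgeR 4.0.16 (glmQLFit, robust, legacy = FALSE) over all 8 libraries, 1 mean per group, with Benjamini-Hochberg adjustment over 16876 genes and a threshold of 0.05. The fit left 4 residual degrees of freedom. Each SE is the log2 fold change divided by the square root of its F statistic. CPM per kilobase used merged exon lengths. The test was run on simulated data first. Alternatives were other scalings, filters, DESeq2 1.42.0, fewer libraries and a replicate block. Library totals lay between 60.8 and 100.5 M counts.

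The members and all gene lists were chosen with earlier results of these data known. All 10 members are named, and of each other list up to 4 called genes per comparison with the smallest p, plus Trp53, Mdm4, Map3k4, Atf4 and Ddit3. Genes named outside that rule after their values were seen are Bax, Sesn2, Trp53inp1, Ddit4, Gtse1, Ccnd1, Dcn, Sox9, E230016M11Rik and Tctex1d4. Marker lists of hepatocytes, neutrophils, macrophages, endothelium, stellate cells, cholangiocytes, lymphocytes, muscle and erythroid cells were summed. Promoters came from RefSeq (GRCm38.p6). Figures were drawn with matplotlib 3.10.9.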

Additional observations from a re-analysis of the deposited data

Results flagged for a closer look

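The effect of SLIT2 differed between mice with and without APAP, by the interaction test of edgeR, for 4 of the 10 genes. Btg2 had an interaction of -4.44 ± 0.42 (edgeR adjusted p = 0.003125), with SLIT2 effects of 0.08 without APAP and -4.37 with APAP. For Gdf15 it was -5.24 ± 0.85 (0.006535), with 0.09 without APAP and -5.15 with APAP. For Plk3 it was -4.1 ± 0.79 (0.0104), from a rise of 1.54 without APAP to a fall of 2.56 with it. Ccng1 had 2.6 ± 0.49 (0.009558), from -2.26 without APAP to 0.34 with it. Without APAP 3 the interaction was -4.34 for Btg2, -3.97 for Gdf15 and -2.76 for Plk3. Btg2 and Gdf15 were called in all 16 alternatives of this test, Plk3 and Ccng1 in 14. The share of all genes called was 28.8%. With 2 libraries a group, no group was tested for a sample far from the others.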

How the results depend on the processing

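The spread between libraries limits these results, and for Phlda3 in SLIT2 so do its 3 counts a library. Very low levels also limit the results of Trp63 and Psrc1. Leaving out 1 library leaves a group with 1, which is then assumed to vary like the other groups. The number of members called in APAP against control was 2, and it was 4 with library totals only, 8 with DESeq2, 0 with only the libraries compared or without both SLIT2 libraries, and 0 to 8 on leaving out 1 library. In SLIT2+APAP against APAP it was 6, and 3 with no count filter, 0 with only the libraries compared, 2 without both SLIT2 libraries and 1 to 9 on leaving out 1 library. In SLIT2+APAP against control it was 0, and 1 with DESeq2, 1 with only the libraries compared, 1 with 6 libraries and 0 to 1 on leaving out 1 library. The interaction count was 4, and 9 with DESeq2 and 2 to 8 on leaving out 1 library. In SLIT2 against control it was 3, with 2 to 4 on leaving out 1 library.

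Over all genes, APAP against control called 133, and 236 with library totals only, 62 with GC offsets, 205 with no filter, 1798 with DESeq2, 54 with the legacy fit, 0 with only the libraries compared (2654 at an unadjusted p under 0.05) or without both SLIT2 libraries (3908), and 0 to 5181 on leaving out 1 library. SLIT2 against control called 9266, and 4645 with at least 10 CPM in 2 libraries, where fewer genes were tested. SLIT2+APAP against APAP called 2351, and 1 with only the libraries compared and 21 to 6133 on leaving out 1 library. SLIT2+APAP against control called 365, and 1433 with DESeq2, 4246 with only the libraries compared, 3 without both SLIT2 libraries, 2582 with 6 libraries and 2 to 2558 on leaving out 1 library. The interaction called 4867, and 1002 to 8303 on leaving out 1 library. The cause was not tested.

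Directions turned mostly for differences near 0. In SLIT2+APAP against control Mdm2 was 0.3 with library totals, 0.06 with at least 10 CPM in 2 libraries and 0.05 without both SLIT2 libraries, and on leaving out 1 library Mdm2 ran from -0.14 to 0.19, Btg2 from -0.12 to 0.59 and Gdf15 from -0.33 to 0.64. Ccng1 was -0.22 in SLIT2+APAP against APAP with GC offsets. In SLIT2 against control Gadd45a was 0.31 with at least 10 CPM, and on leaving out 1 library Gadd45a ran from -0.95 to 0.21, Gdf15 from -0.14 to 0.29 and Btg2 from -0.13 to 0.26. In APAP against control Phlda3 ran from -1.7 to 0.71, with the positive value without control 1, and Cdkn1a from -1.59, without APAP 3, to 5.01. The Cdkn1a interaction ran from -4.09 to 2.5, the latter without APAP 3. Library totals shifted the median of all genes to 0.16 in APAP against control, 0.11 in SLIT2 against control, 0.12 in SLIT2+APAP against APAP and 0.34 in SLIT2+APAP against control.

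The replicate numbers 1 and 2 are shared by control, SLIT2 and SLIT2+APAP, but same-numbered libraries did not deviate together (correlations of 0.07, -0.06 and -0.02). With the replicate block SLIT2+APAP against control called 2494 genes and 2 members and SLIT2 against control 11062 genes, beside 2582 and 11176 for the same 6 libraries without it, a fit chosen after seeing the data.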
